A study of Mus musculus with 2 samples.

Results

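The nuclear genes for subunits of oxidative phosphorylation were examined in the gastrocnemius, the large calf muscle, of mice 10 days after birth. Members were chosen by gene symbol alone, with no measured value in the rule: the Nduf genes without the assembly factors, Sdha to Sdhd, the Uqcr genes, Cox4 to Cox8, Cycs and the Atp5 genes, without symbols marked as pseudogenes by -ps. The rule matched 91 of 55536 endogenous genes. Of these, 85 protein-coding genes were summarised, with 36 in complex I, 4 in complex II, 8 in complex III, 19 in complex IV (Ndufa4 and Ndufa4l2 included), 16 in complex V, and Cycs and Cox7a2l outside a complex. The other 6 were 4 annotated processed pseudogenes (Ndufb4c, Cox6c2, Ndufa11b and Ndufs6b), a second gene of the symbol Atp5o and Atp5s, which is not a subunit.

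The study holds 1 group of 2 total RNA libraries, replicates 1 and 2. Both came from male B6CASTF1/J mice, first-generation hybrids of C57BL/6J and CAST/EiJ, from 300 ng of RNA with ERCC spike-in RNAs, and are labelled as biological replicates. No allele, transgene or treatment is named; the animals are numbered separately, although a single donor code covers both. There was no second condition, so no gene was tested, and every difference below is a difference between these libraries. Reads were assigned on mm10, so whether CAST/EiJ alleles were read as fully as C57BL/6J alleles was not tested. Each library was quantified in 2 ways by the authors: gene tables with expected counts and TPM, and a second set of transcript tables with estimated counts and TPM. TPM is the relative abundance of a transcript after correction for its length, as a share of all transcripts in the library. The labelled tissue was checked against skeletal muscle markers, and all 10 were detected, with Acta1 at 22684 and 24110 TPM and Mylpf at 21774 and 21789 TPM.

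Oxidative phosphorylation makes ATP at the inner mitochondrial membrane. Complexes I to IV pass electrons from NADH and succinate to oxygen, and complexes I, III and IV, but not complex II, pump protons. Cytochrome c carries electrons from complex III to complex IV, and complex V, the ATP synthase, uses the proton gradient to make ATP. Most of their subunits are encoded in the nucleus and imported, and a few core subunits of complexes I, III, IV and V are encoded by mitochondrial DNA. In muscle, several complex IV subunits exist in a general form and in a form of heart and skeletal muscle, and the muscle forms take over during development.

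The first sequences are coding stretches of the c-ring genes, since 1 of them, Atp5g2, had the largest difference between the tables of all members and a copy with the same coding stretch. The c subunits form the rotor of ATP synthase, and Atp5g1, Atp5g2 and Atp5g3 encode the same mature subunit with different import signals. Shown are the last 120 coding bases before the stop codon, 5′ to 3′, from the GENCODE M21 transcripts, with bases that differ from Atp5g3 in capitals.
Atp5g3: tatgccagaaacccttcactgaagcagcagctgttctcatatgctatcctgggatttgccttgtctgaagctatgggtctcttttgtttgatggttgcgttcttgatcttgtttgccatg
Atp5g1: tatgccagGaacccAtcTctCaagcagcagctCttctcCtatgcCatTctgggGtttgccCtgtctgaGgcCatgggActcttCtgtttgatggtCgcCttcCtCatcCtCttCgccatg
Atp5g2: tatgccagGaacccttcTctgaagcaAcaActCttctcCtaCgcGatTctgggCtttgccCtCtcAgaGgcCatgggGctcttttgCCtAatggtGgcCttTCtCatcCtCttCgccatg
The genes lie on mm10 at chr2:73908447-73911326, chr11:96068852-96075670 and chr15:102662864-102672352, all on the minus strand. Atp5g1 differed from Atp5g3 at 21 of these bases and Atp5g2 at 27, and 18 and 23 of those differences were at the third base of a codon. The paralogs could therefore be told apart by reads over this stretch. Gm10175, a transcribed processed pseudogene at chr7:23946646-23947290, held the 120 bases of Atp5g2 with 0 differences, and its whole 645-base transcript matched Atp5g2 at 100%.

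A further coding stretch is shown because reads over it cannot separate a member from its copies. It is the last 120 coding bases of Cycs, cytochrome c (chr6:50562563-50566538, minus strand), with no capitals because there was no difference to mark.
Cycs: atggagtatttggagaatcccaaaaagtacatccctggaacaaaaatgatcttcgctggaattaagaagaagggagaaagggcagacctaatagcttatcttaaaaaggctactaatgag
The Cycs stretch occurred unchanged in Gm10053 (chr19:24875686-24876631), which is annotated as protein-coding, and in the processed pseudogene Gm10108 (chr5:13121448-13121766). Ndufb4, a subunit of the complex I membrane arm (chr16:37647170-37654453, minus strand), has a copy of this kind in Ndufb4c, a processed pseudogene at chr15:73809507-73809896 that the symbol rule also matched and whose 390 bases match it at 100%. Values of these members are given below with their copies.

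Nearly all subunit genes were expressed, most of them at high levels. Of the 85 members 83 reached 1 TPM in both libraries, against 51.4% of 22015 nuclear protein-coding genes. At least 100 TPM in both libraries was reached by 73 of the 85, against 2.39% of those genes. The exceptions in the gene tables were Atp5g2, Cox4i2, Cox6a1, Cox6b2, Cox7a2l, Cox7b2, Cox8c, Cycs, Ndufa4l2, Ndufb3, Ndufb4 and Ndufs8. Of these, Ndufs8 reached 100 TPM in replicate 2 only. Atp5g2, Cycs and Ndufb4 have large copies and were over 2-fold higher in the second tables after scaling, as described below. Together the members held 5.46% of the TPM of nuclear protein-coding genes in replicate 1 and 5.95% in replicate 2, and the shares from the second tables were 5.72% and 6.10%.

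The median level differed between complexes, with complex V highest and complex I lowest. Median TPM was 171 ± 12.5 (SD, n = 2) for complex I, 225 ± 23.0 for complex II, 376 ± 23.1 for complex III, 354 ± 24.1 for complex IV and 436 ± 13.1 for complex V. The SD is that of the median between the 2 libraries and does not measure the spread among the genes of a complex. Even by this SD, complexes III and IV could not be put in order. Whether the genes of the complexes differ as sets was not tested. Complex II had only 4 members. The second tables gave higher medians, 304, 286, 612, 593 and 781 TPM, with complexes I and II in the opposite order. Deposited TPM is a share of all features: nuclear protein-coding genes held 43.7% and 44.2% of it in the gene tables, where 7SL RNA (Rn7s1 with Rn7s2) made up 30.2% and 29.8%, and 73.1% and 72.7% of it in the second tables. A deposited TPM from one kind of table is therefore not on the scale of the other, and where both are set side by side below, the difference includes this. Levels and orders of genes below are those of the gene tables unless the second are named, and some orders differed between the tables.

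**Figure D1:**
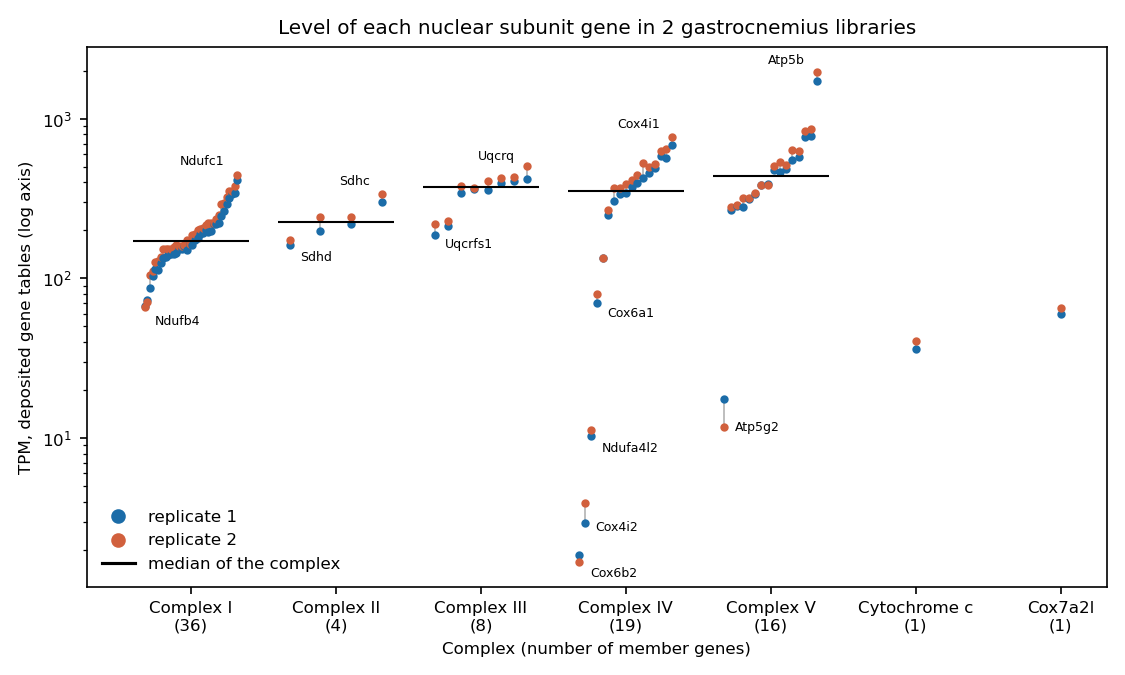
TPM of each member in the deposited gene tables (log axis), by complex, with 1 point per library joined by a line and the median of the complex as a black bar. Atp5b stands highest at 1718 and 1977 TPM, most members lie between 100 and 1000 TPM, and the lowest points are alternative complex IV forms. Cox7b2 and Cox8c, at 0 in both libraries, are not drawn but count in the median of complex IV.

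Complex I takes electrons from NADH through a matrix arm and pumps protons through a membrane arm. Its levels were more even than those of complexes IV and V. The middle 50% of its members spanned 0.61 on the log2 scale of TPM, against 0.94 for complex V and 1.84 for complex IV. The low alternative forms of complex IV and Atp5g2 count in those spans. Complexes II and III, with fewer members, are not part of this comparison, so evenness is not shown to be particular to complex I. The 8 genes of the NADH dehydrogenase module had a median of 165 ± 5.58 TPM. Ndufv2, an iron-sulfur subunit, was highest there at 266 and 298 TPM in replicates 1 and 2, followed by Ndufa12 at 224 and 248 TPM. Lowest by mean was Ndufs1, the largest subunit of the complex, at 140 and 153 TPM, though Ndufs6 was lower in replicate 2 at 152 TPM.

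The quinone module, which hands electrons to ubiquinone, had a median of 194 ± 12.8 TPM over 8 genes. Ndufa5, an accessory subunit, had 220 and 222 TPM. Ndufs8, an iron-sulfur subunit, was lowest at 87.1 and 105 TPM. Each of the 8 genes of this module had more TPM in replicate 2, as had each gene of the NADH dehydrogenase module. This was not particular to the module: on scaled counts 81 of 83 members were higher there, against 53.4% of protein-coding genes.

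The membrane arm held 20 members with a median of 166 ± 13.0 TPM. Ndufc1 was highest at 415 and 447 TPM and Ndufb9 next at 344 and 381 TPM. Ndufb4 was lowest at 67.2 and 66.3 TPM, with the reservation about its copy given below, and Ndufb3 followed at 73.4 and 71.0 TPM. The genes of this arm spanned a wider range than those of the matrix arm.

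Complex II, succinate dehydrogenase, is the only complex with no subunit encoded by mitochondrial DNA. Sdha, its flavoprotein, had 221 and 242 TPM and Sdhb, its iron-sulfur protein, 198 and 242 TPM. The membrane anchors Sdhc and Sdhd had 301 and 340 TPM and 162 and 173 TPM. The order within the complex depended on the table, since Sdhb was highest in the second tables at 339 and 409 TPM and Sdhc stood at 251 and 280 TPM.

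Complex III passes electrons from ubiquinol to cytochrome c. The median of its core and Rieske genes, 220 ± 11.4 TPM, was below that of its small subunits, 413 ± 22.6 TPM, though the groups overlapped. Among the former, Uqcrc1, a core protein, had 356 and 405 TPM, Uqcrc2 212 and 228 TPM, and Uqcrfs1, the Rieske protein, 186 and 221 TPM. Among the latter, Uqcrq had 422 and 506 TPM, Uqcrh 406 and 433 TPM, and Uqcr11 was lowest by mean at 343 and 379 TPM. In the second tables Uqcrq was instead the lowest small subunit, at 564 and 623 TPM. Cyc1, the cytochrome c1 gene that the symbol rule leaves out, had 257 and 308 TPM.

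Complex IV, cytochrome c oxidase, reduces oxygen. Subunits with 1 form had a median of 423 ± 29.4 TPM. In the gene tables Cox5b and Cox5a led at 569 and 644 TPM and at 458 and 498 TPM, and Cox6c was lowest at 337 and 371 TPM. This order depended on the table. In the second tables Cox7c led at 1305 and 1471 TPM, followed by Cox6c at 871 and 900 TPM. Cox5b had 766 and 871 TPM there, and Cox5a was lowest at 730 and 778 TPM. The 15 genes of subunits with several forms ranged from 0 to 683 and 769 TPM, the values of Cox4i1.

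Complex V had the member with the highest level. Atp5b, the catalytic beta subunit at chr10:128083273-128090391, had 1718 and 1977 TPM, and Atp5a1, the alpha subunit, 778 and 857 TPM. Within the F1 catalytic part Atp5d was lowest by mean, at 281 and 320 TPM. The peripheral stalk genes Atp5o and Atp5h had 575 and 632 TPM and 463 and 532 TPM, and Atp5f1 was lowest of the stalk at 269 and 281 TPM. The other membrane subunits were close together, from Atp5mpl at 390 and 382 TPM and Atp5k at 384 and 384 TPM down to Atp5j2 at 284 and 289 TPM. Of the members outside a complex, Cox7a2l, a supercomplex factor, had 59.8 and 65.4 TPM, and Cycs 36.2 and 40.7 TPM.

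Where a subunit has a muscle form and a general form, the muscle form was higher in the gene tables, by amounts that differed from pair to pair. Cox6a2, the muscle form at chr7:128205435-128206387, had 396 and 446 TPM, and Cox6a1 had 70.6 and 80.1 TPM. The muscle form thus held 84.9% and 84.8% of the pair in the gene tables and 78.7% and 78.2% in the second tables. Cox8b, the muscle form of subunit VIII, had 427 and 525 TPM against 134 and 134 TPM for Cox8a, a share of 76.1% and 79.7%, or 74.1% and 68.2% in the second tables. In both of these pairs the libraries of the muscle form lay above those of the general form.

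The pair of subunit VIIa was the closest, and its order depended on the table. Cox7a1, the muscle form (chr7:30184144-30186078), had 308 and 368 TPM and Cox7a2, the general form (chr9:79755361-79759878), had 249 and 268 TPM in the gene tables. The log2 ratio of TPM, with 0.1 added to each, was 0.38 ± 0.11 (SD, n = 2). In the second tables the values were 434 and 477 TPM against 725 and 760 TPM, a log2 ratio of -0.71 ± 0.05. Which form was higher was therefore not settled. The leading transcript of Cox7a1 also differed: a transcript of 393 bases took 95.3% and 95.8% of the gene in the first quantification, and one of 485 bases took 76.4% and 100% in the second. Both are annotated as coding.

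Forms known from other tissues were low. Cox4i1, the general form of subunit IV, was 232-fold and 196-fold higher in TPM than Cox4i2, a form of lung, which had 2.95 and 3.92 TPM. Cox6b1 was 319-fold and 375-fold higher than Cox6b2, a form of testis, at 1.84 and 1.67 TPM. That ratio rests on 23 and 20 counts of Cox6b2: its log2 mean was 8.35 in the gene tables and 7.91 in the second, where Cox6b1 had 679 and 708 TPM and Cox6b2 2.43 and 3.20 TPM. Ndufa4 was 47.6-fold and 46.5-fold higher than Ndufa4l2, a gene induced by low oxygen, at 10.3 and 11.3 TPM. The testis forms Cox7b2 and Cox8c had 0 counts in both libraries, which with a limit of 3 counts allows up to 0.209 and 0.258 TPM in replicate 1. Cox7b was therefore at least 1786-fold and 1981-fold higher than Cox7b2, and Cox8b at least 1657-fold and 2039-fold higher than Cox8c.

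The c-ring genes gave different compositions in the 2 kinds of table. In the gene tables Atp5g3 held 57.3% and 56.3% of their summed TPM, Atp5g1 41.4% and 42.9%, and Atp5g2 1.31% and 0.789%. In the second tables Atp5g2 held 19.5% and 18.9%, Atp5g1 27.8% and 29.0% and Atp5g3 52.7% and 52.1%. Atp5g3 was the highest of them in both kinds of table, at 768 and 833 TPM in the gene tables, with Atp5g1 at 554 and 635 TPM. Atp5g2 had 17.5 and 11.7 TPM there and 463 and 482 TPM in the second tables.

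**Figure D2:**
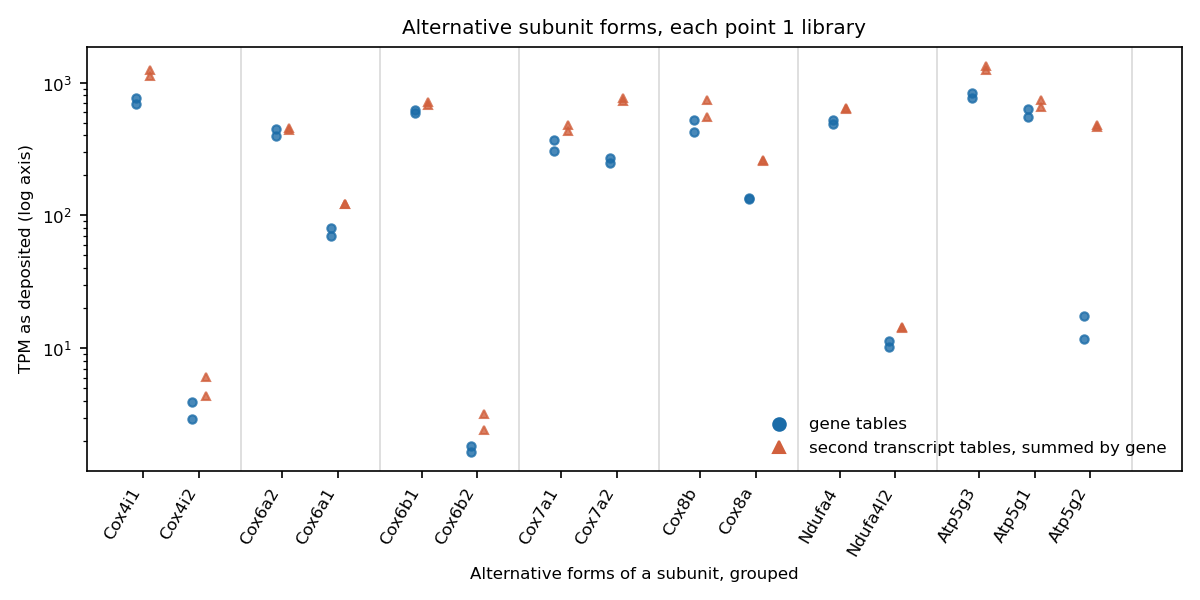
TPM as deposited (log axis) of alternative forms of a subunit, grouped, with circles for the gene tables and triangles for the second transcript tables and 1 point per library. Muscle forms Cox6a2 and Cox8b stand above their partners with both symbols, the order of Cox7a1 and Cox7a2 turns between the symbols, and Atp5g2 stands at 17.5 and 11.7 TPM with circles and at 463 and 482 TPM with triangles.

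Copies elsewhere in the genome held a sizeable part of the counts of some members. A copy was another gene whose transcript matched a coding transcript of a member over at least 100 bases, at 95% identity or more, along 80% or more of its own length, in the same orientation and outside the member's locus. Such copies were found for 25 of the 85 members, 50 genes in all, and Atp5l had the highest number, 10. In both libraries of the gene tables copies held over 5% of the summed counts of 10 members, and in the second tables of 4. The search was run for members only, so whether copies are more frequent for them than for other genes is not known. The copies summed to 23601 and 26493 expected counts in the gene tables and to 4826 and 5004 estimated counts in the second.

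Atp5g2 was the extreme case. In the gene tables it had 358 and 239 expected counts, and Gm10175 with the identical coding stretch printed above had 5142 and 5895. The second tables gave Atp5g2 4642 and 4794 estimated counts. Member and copies together came to 5500 and 6134 counts in the gene tables and 4642 and 4902 in the second. The difference between the tables, as log2 of second-table over gene-table counts, was 4.01 for Atp5g2 alone and -0.28 for the sum. From which gene the reads came was not tested.

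Cycs showed the same kind of split. It had 3350 and 3743 expected counts in the gene tables, with 5877 and 6235 on Gm10053, and 6933 and 7707 in the second tables. Cycs with its 4 copies had 10140 and 11126 counts in the gene tables and 10187 and 11109 in the second. Its TPM differed more than its counts, 36.2 and 40.7 against 572 and 661, and the leading transcript differed too. A coding transcript of 3123 bases took 93.4% and 92.3% of the gene in the first quantification, and a retained-intron transcript of 607 bases 91.9% and 92.5% in the second. After both tables were scaled to protein-coding genes, Cycs was 9.64-fold higher in TPM in the second.

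Ndufb4 and Cox7c were further members with large copies. Ndufb4 had 938 and 1004 expected counts, and the pseudogene Ndufb4c had 1604 and 1875 and was listed at 0 in the second tables. Cox7c, a complex IV subunit, had 4795 and 5430 counts, with 2719 and 2809 on Gm12338, whose 192 bases match Cox7c at 100%. Gm12338 reached 902 and 930 TPM, above the 345 and 389 TPM of Cox7c itself. Smaller shares lay on copies of Atp5l (26.8% and 30.0%), Ndufs5 (25.4% in replicate 2), Atp5h (19.5% and 18.9%), Cox7a2l (17.1% and 18.1%) and Ndufa12 (14.6% and 13.5%).

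**Figure D3:**
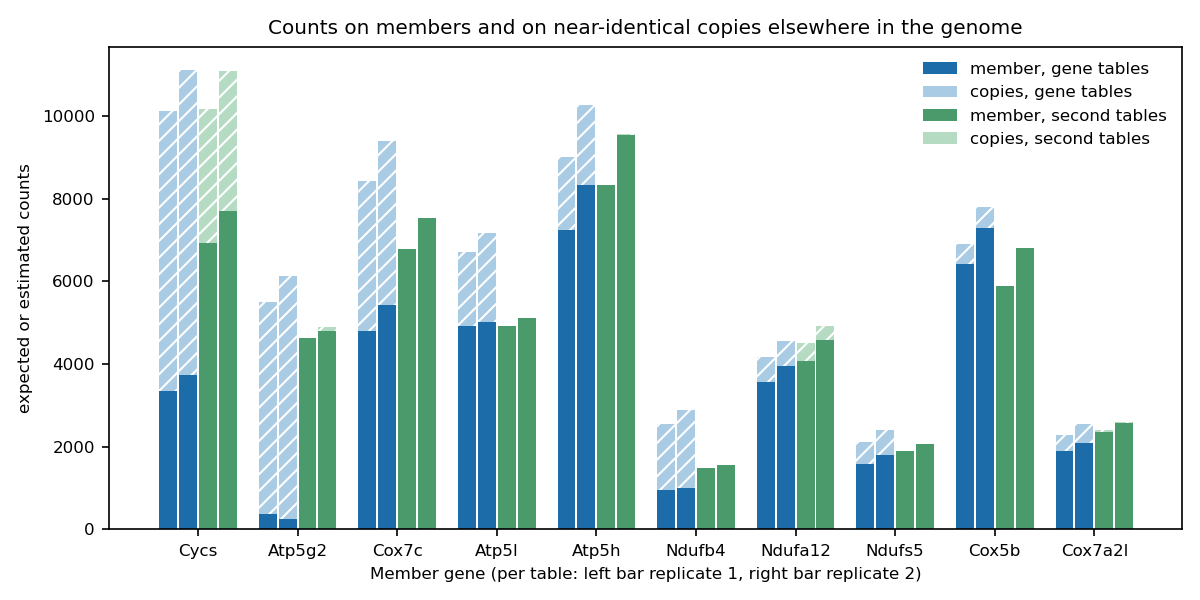
Counts (linear axis) of the 10 members with over 5% of counts on copies in both libraries of the gene tables, with solid bars for the member and hatched bars for its copies, in blue for the gene tables and green for the second tables, replicate 1 left and replicate 2 right. Hatched parts are large for Cycs, Atp5g2, Cox7c and Ndufb4 in the gene tables and nearly absent in the second tables apart from Cycs and Ndufa12.

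Most members differed by less than 2-fold in TPM between the tables once both were scaled to the nuclear protein-coding genes they share. The median log2 difference was -0.005 over 83 members, against -0.17 over 13119 protein-coding genes. Over 2-fold higher in the second tables were 4 of 83 members, against 0.556% of genes: Atp5g2 (log2 difference 4.31), Cycs (3.27), Ndufb4 (1.45) and Cox7c (1.19), which are also the members with the largest shares on copies. Cox7a2 followed at 0.79. Over 2-fold lower were 2 of 83, against 1.11% of genes: Ndufa3 (-1.75) and Sdhc (0.499-fold, just past the limit), followed by Ndufa1 (-0.98), Ndufa2 (-0.70) and Cox6a2 (-0.65). With counts in place of TPM, 2 members were over 2-fold higher and 4 over 2-fold lower. With these counts summed with those of the copies, 0 were over 2-fold higher and 4 over 2-fold lower.

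Members are short, and the tables treat short transcripts differently. The median length was 649 bases, against 2499 bases for the protein-coding genes compared. The effective lengths imply a fragment of 100 bases in the gene tables and of 347 and 355 bases in the second tables. The rank correlation (Spearman) of gene length with the log2 difference in TPM was 0.05 over the 83 members. Over 13119 protein-coding genes it was -0.21. Of 73 members with several transcripts, 43 had the same leading transcript in both kinds of table and 30 did not, taking the lead in replicate 1. Among these 30 the leading transcript of the second table was longer in 25 and shorter in 5. Ndufa3, for instance, was led by a nonsense-mediated decay transcript of 343 bases in the first quantification and by a retained-intron transcript of 782 bases in the second. The part of fragment length in these differences was not tested. Leading transcripts were compared for members only, so whether such counts are usual for other genes is not known.

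Nearly all members had somewhat more counts in replicate 2. After TMM scaling, 81 of the 83 members that averaged 20 or more expected counts were higher in replicate 2, against 53.4% of 13124 protein-coding genes. The exact binomial 95% interval of the ratio, which covers counting error only, lay above 0 for 75 of 83, against 19.1% of genes, and below 0 for 1 of 83, against 13.2%. The interval narrows as counts rise, and members and other genes were not matched for count, so these shares are not like for like. The median log2 ratio was 0.21, against 0.01 over the protein-coding genes, and it was 0.20 in the second tables. The ratios of single genes were small: over 1.2-fold higher were 15 of 83 members, against 10.3% of genes, and over 1.2-fold lower 1 of 83, against 10.8%. In place of 15, there were 8 when libraries were scaled by endogenous totals, 9 with spike-in totals and 7 relative to genes of similar length. With 1 mouse on each side, a difference between animals cannot be told apart from a difference between dissections or library preparations.

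Each complex was higher in replicate 2. The median log2 ratio was 0.21 for complexes I, II and III, 0.25 for complex IV and 0.15 for complex V, and all 36, 4 and 8 members of the first 3 were higher. Large ratios among members with a mean count of 100 or more came from complexes I to IV. Cox8b had 3613 and 4447 expected counts (log2 ratio 0.37, interval 0.31 to 0.43). Sdhb had 6684 and 8177 (0.36, 0.31 to 0.41), Uqcrq 5065 and 6168 (0.35, 0.30 to 0.41) and Ndufs8 1986 and 2415 (0.35, 0.27 to 0.44). Cyc1, outside the rule, was at 0.33 with 10417 and 12483 counts. In the gene tables these 4 members were 1.28-fold to 1.29-fold higher in replicate 2, but Cox8b was lower in the second tables (log2 ratio -0.28).

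At the other end, several genes had near-equal counts. Ndufb3 had 1580 and 1530 expected counts (log2 ratio 0.02, interval -0.08 to 0.13), Atp5mpl 3396 and 3327 (0.04, -0.03 to 0.11), Ndufs4 3006 and 2989 (0.06, -0.01 to 0.14) and Cox8a 1961 and 1956 (0.07, -0.02 to 0.16). The 4 other membrane subunits of complex V had a median of 0.08, and the 5 F1 genes 0.21. Within complex V the counting intervals of Atp5mpl and Atp5b (0.19 to 0.22) did not overlap.

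Directions that depended on the quantification were few. Atp5g2 was lower in replicate 2 in the gene tables (log2 ratio -0.51, interval -0.76 to -0.27), but at 0.15 in the second tables and at 0.23 when summed with its copies. Cox8b was at -0.28 in the second tables, with 1604 and 1232 estimated counts, against 0.37 in the gene tables. Ndufa1 was at -0.28 with 434 and 332 counts there and at 0.15 in the gene tables. These 2 are single-transcript genes of 360 and 419 bases. The direction of these 3 genes is uncertain, and Cox6b2 with 23 and 20 counts could not be placed on either side.

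**Figure D4:**
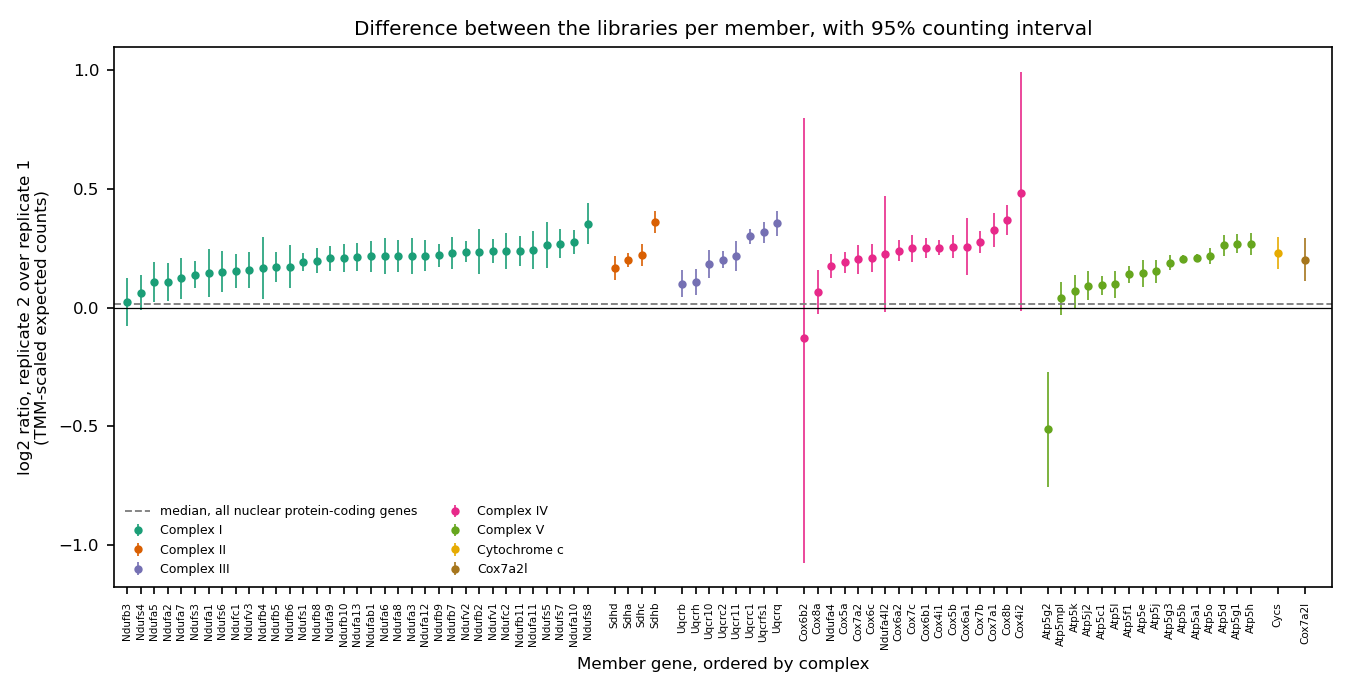
Log2 ratio of replicate 2 over replicate 1 (TMM-scaled expected counts) of the members reported, ordered by complex, with the 95% counting interval and the median of all nuclear protein-coding genes as a dashed line. Points lie between 0 and 0.5 apart from Atp5g2 at -0.51 and Cox6b2 at -0.13.

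Marker genes of slow fibres, blood and vessels were also higher in replicate 2. All 11 slow fibre markers had ratios above 0 (median 0.54 on the log2 scale), with a summed level of 1676 and 2239 TPM, and none was at 0. Of the 7 erythroid markers 6 could be compared and all 6 were higher (median 0.86, summed level 1139 and 2083 TPM). Of 6 endothelial markers 5 were higher (median 0.20, 183 and 189 TPM). The 10 general and fast skeletal muscle markers, led by Acta1, Mylpf and Ckm, had a median of 0.08 with 7 higher, and a summed level of 92534 and 93544 TPM. The part of slow fibres, blood or vessels in the ratios of the members was not tested. In bulk tissue fewer or more cells of a type and less or more RNA per cell cannot be told apart.

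Most markers of brown fat and heart, other tissues rich in mitochondria, were at or near 0. Ucp1, the defining gene of brown fat, had 0 counts in both libraries, Elovl3 had 0 and 2, and Cidea and Dio2 reached at most 1.64 and 0.920 TPM, so that the list summed to 2.32 and 2.51 TPM. Of the heart markers, Nppa, Nppb, Myl7 and Nkx2-5 had 0 counts, and Tnni3 and Tbx5 stayed at or below 1 TPM. Myh6, at 38.5 and 49.5 TPM, made up most of the summed 39.5 and 50.2 TPM of that list, and it shares sequence with Myh7. All 4 fibroblast markers were lower in replicate 2 (median -0.13, summed level 2441 and 2206 TPM). Of 6 adipocyte markers 2 were higher (median -0.06, 162 and 185 TPM), and of 5 macrophage markers 3 (median 0.04, 33.6 and 30.5 TPM).

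Effective length moved with the ratio as well. The protein-coding genes compared were divided by effective length into 10 classes of equal size, and 67 of the 83 members were in the shortest class, below 995 bases. In that class the median log2 ratio was 0.08 over 1313 genes and 0.21 over the members. Relative to the median of their own class, members were at a median of 0.14, with 76 of 83 above it. The part of length was not tested further.

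Subunits encoded by mitochondrial DNA were split between the libraries. Of the 13 such genes 6 had a log2 ratio above 0, and the median was -0.01. Mt-Co1, a catalytic core subunit of complex IV, had 9178 and 9494 TPM (0.12), mt-Cytb 5484 and 5114 TPM (-0.03) and mt-Nd1 4829 and 4562 TPM (-0.01). The lowest ratio was that of mt-Co2, at 152 and 69.0 TPM (-1.07), but the second tables gave mt-Co2 1015 and 956 TPM and a ratio of -0.001. Larger differences appeared elsewhere in the second tables, where mt-Nd3 had 55.8 and 4.26 TPM (ratio -3.49) against 2020 and 2004 TPM in the gene tables (0.06). Likewise mt-Nd4l had 6.16 and 2.35 TPM (-1.12) against 2932 and 2542 TPM (-0.13). The second tables listed mt-Atp8 at 0 and gave a median of 0.02 over the others, with 9 higher. The difference between the nuclear and the mitochondrial subunits was not tested.

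Assembly factors were higher in replicate 2 for the most part, though for most of them the counting interval included 0. Of the protein-coding genes compared, 53.4% were higher. Apart from Uqcc2 the factors had levels below 100 TPM. Of 16 complex I factors 15 were higher (median log2 ratio 0.17), 5 with an interval above 0, and 13 were higher in the second tables. Dmac1, Ecsit and Timmdc1 led at mean levels of 27.0, 25.8 and 18.2 TPM. Ndufaf8 had the largest ratio, 0.27 (interval 0.01 to 0.53), but was at 0.009 in the second tables. Of 24 complex IV factors 21 were higher (median 0.12), led by Cox14, Cox17 and Higd2a at 83.0, 61.6 and 56.3 TPM. Pet117 had the largest ratio there, 1.35, from only 26.3 and 63.9 counts, and it was listed at 0 in the second tables. All 5 ATP synthase factors were higher (median 0.15): Tmem242, Atpif1, Tmem70, Atpaf1 and Atpaf2 had 58.6, 49.7, 27.8, 17.7 and 16.4 TPM. For complex III 5 of 6 were higher (median 0.12), with Uqcc2 at 147 TPM, Uqcc1 at 49.2 TPM, Uqcc3 at 25.2 TPM, Lyrm7 at 8.38 TPM, Ttc19 at 8.02 TPM and Bcs1l at 6.08 TPM. For complex II 3 of 4 were higher (median 0.17), with Sdhaf4, Sdhaf2 and Sdhaf1 at 26.2, 19.5 and 4.56 TPM, and Sdhaf3, the lower one, at 1.57 and 1.44 TPM. The interval lay above 0 for 3 of the 5 ATP synthase factors, 1 of the 6 of complex III and 1 of the 4 of complex II. For complex IV it lay above 0 for 6 of the 24 and below 0 for Cox16 (log2 ratio -0.28, interval -0.46 to -0.10). Only 18 complex IV factors were higher in the second tables, where Pet117 had no ratio. Among the protein-coding genes compared, the interval lay above 0 for 19.1% and below 0 for 13.2%. Factors and other genes were not matched for count.

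Regulators of mitochondrial gene expression were low in level and mostly higher in replicate 2. After TMM scaling, 11 of the 13 genes had a log2 ratio above 0 (median 0.20), 8 of them with an interval above 0. Tfam, which packages mitochondrial DNA and is needed for its transcription, had 20.4 and 20.7 TPM (0.22), Esrra, an estrogen-related receptor, 19.5 and 21.3 TPM (0.26) and Gabpa, an ETS factor, 12.5 and 12.4 TPM (0.01). Esrrg had the largest ratio, 0.67 (interval 0.52 to 0.83), at 4.80 and 6.51 TPM.

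**Figure D5:**
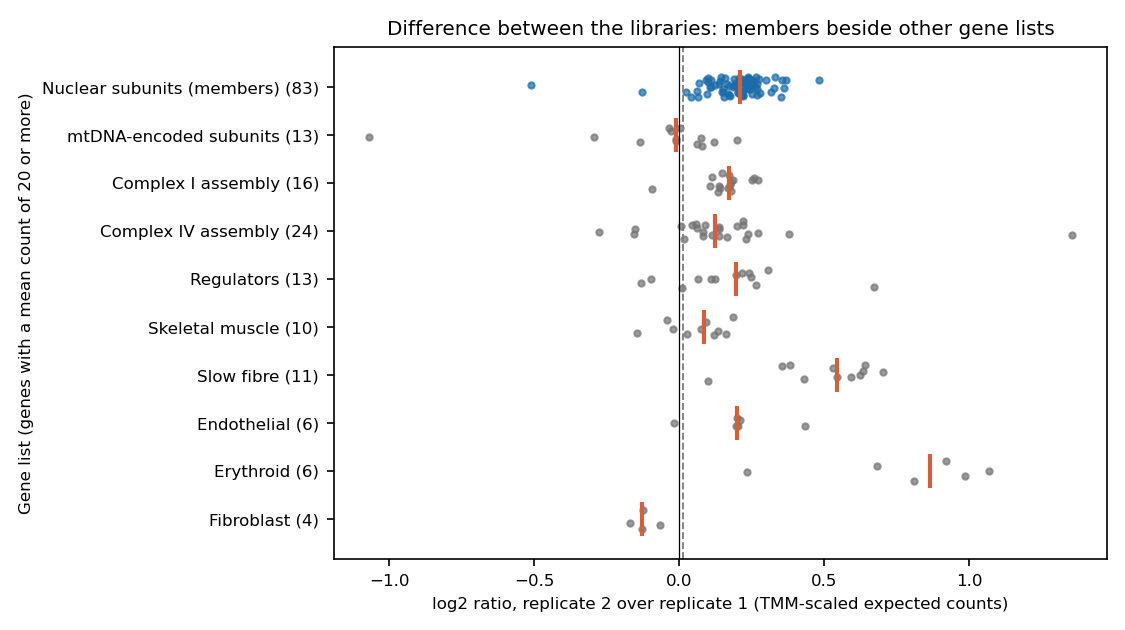
Log2 ratio of replicate 2 over replicate 1 (TMM-scaled expected counts) of each gene with a mean count of 20 or more, for the members and 9 other lists, with the median of each list as an orange bar and the median of all nuclear protein-coding genes as a dashed line. The members lie around 0.21, the slow fibre and erythroid lists further right at 0.54 and 0.86, and the subunits encoded by mitochondrial DNA around -0.01.

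Promoters of the members were searched for motifs of factors known to act on genes of oxidative phosphorylation. RefSeq promoter windows on GRCm38, 250 bases before to 50 after the start, were matched for 69 of the 85 members and compared with all 27025 genes of the same table, over both strands. No motif contains another, and a gene was counted once. The YY1 motif AANATGGC was found in 17 of 69 members (24.6%) and in 6.96% of all genes. The windows reach past the start, and YY1 matches wholly upstream of it were in Atp5j, Ndufa7, Ndufb10, Ndufb11, Ndufb5 and Ndufs8 only. How many YY1 matches fell on coding sequence was not tested, and upstream matches were not counted over all genes. The NRF1 motif was found in 7 of 69 (10.1%, against 1.41%), the ETS motif of GABP, CCGGAAGT, in 5 (7.25%, against 4.31%) and the estrogen-related receptor motif TNAAGGTCA in 3 (4.35%, against 1.43%). Some matches of the other motifs also reached past the start. A match is a string of letters in a window and says nothing of binding in this tissue. The NRF1 matches were in Atp5c1, Atp5g2, Ndufa11, Ndufa6, Ndufb4, Sdhd and Uqcrc1.

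Upstream windows of 4 members are printed to show where the NRF1 match lies and what surrounds it. They read 5′ to 3′ on the strand of the gene, with the NRF1 match in capitals and in order from chr2:10080433-10080474, chr15:102671055-102671114, chr16:37654525-37654584 and chr9:50603894-50603953, all on the minus strand.
Atp5c1: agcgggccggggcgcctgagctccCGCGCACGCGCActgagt
Atp5g2: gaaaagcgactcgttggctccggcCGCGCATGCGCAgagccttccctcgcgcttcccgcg
Ndufb4: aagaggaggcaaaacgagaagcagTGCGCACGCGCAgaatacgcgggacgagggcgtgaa
Sdhd: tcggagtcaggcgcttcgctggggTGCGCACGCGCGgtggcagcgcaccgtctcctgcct
The matches began 18, 43, 192 and 80 bases upstream of the start. Ndufb4 and Sdhd also held an estrogen-related receptor match.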

How the data were processed

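Total RNA of 2 gastrocnemius libraries (1 group) was analysed. Per the file headers, the deposited gene tables hold expected counts and TPM under RSEM's column names. Deposited notes name mm10, GENCODE M21 and transcriptome alignments as their basis. The deposited posterior mean counts and posterior mean TPM served as alternatives. Deposited transcript tables add the percent of a gene's TPM on every transcript. The second deposited tables hold estimated counts and TPM in kallisto layout, from FASTQ. Program versions and use of strand in counting: not given in the sources used here. Reads of overlapping antisense genes may therefore be mixed. The libraries held 38874862 and 38160786 expected counts.

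Expected counts were rounded, scaled with TMM (edgeR 4.0.16, R 4.3.3) and compared as log2 ratios with a prior count of 0.5 and exact binomial 95% intervals, which cover counting error only, since reads are not independent molecules. Spike-ins were left out. On data over 13124 genes, simulated with counting error alone and the same scaling, log2 ratios of 0, 0.2 and 1.0 were recovered as 0, 0.21 and 1.00. That could check only the calculation of the ratio, not the scaling, differences between animals or the assignment of reads. The rule for the members uses symbols only, but the choice of this gene set, the gene lists and the motifs was made with earlier results of these data known. Every member may be named; values are given for the 2 highest and the lowest of each role, alternative forms, the 5 most extreme ratios and table differences, and leading members of other lists. Some items are not reported here. Genes without the mean count of 20 had no ratio. Copies were found with BLAST 2.17.0 against GENCODE M21 transcripts. Of the listed symbols, Coa1 and Atp5if1 had no match. DESeq2 1.42.0 size factors and other alternatives are described in the closing section.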

Additional observations from a re-analysis of the deposited data

How the results depend on the processing

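With 1 group of 2 libraries, no p-value was computed and depth limits only the low members. No paired analysis was possible because there is 1 group. Leaving out a replicate gives no ratio between libraries. In the second tables the medians of complexes I to V were 304, 286, 612, 593 and 781 TPM. With the gene tables rescaled to nuclear protein-coding genes, an alternative chosen after seeing the data, the medians were 390, 513, 855, 804 and 991 TPM. In the second tables the log2 ratio of Cox7a1 over Cox7a2 was reversed, at -0.71; the cause was not tested.

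The median log2 ratio between the libraries was 0.14 relative to genes of the same length class, and from 0.17 to 0.21 under the other alternatives. Over 1.2-fold higher were 8 members with endogenous totals, 9 with spike-in totals and 7 relative to the length class, and over 1.2-fold lower 2 in the second tables. Between the tables, over 2-fold higher in the second were 21 members with deposited TPM, 2 with counts in place of TPM and 0 with counts summed with copies, the last chosen after seeing the data. Over 2-fold lower were 1 with deposited TPM, 1 with a pseudocount of 1 TPM, 4 with counts in place of TPM and 4 with counts summed with copies. The deposited TPM is not scaled to the genes that both tables share, and the cause of the other changes was not tested. Detection, the share of TPM and the counts of leading transcripts stayed within their spread or within 1.5 times under every alternative run.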

Other observations

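Ndufb1-ps, which the symbol rule leaves out by its suffix, is annotated as a bidirectional-promoter lncRNA rather than a pseudogene. It had 1108 and 1038 expected counts (78.8 and 73.3 TPM) in the gene tables and 1213 and 1124 estimated counts in the second, a level similar to that of Ndufb3. The 8 other symbols with that suffix had at most 7.63 expected counts. Cox7b, a complex IV subunit, had its highest TPM on Cox7b-203, a retained-intron transcript of 526 bases, which took 63.1% and 58.0% of the gene in the first quantification and 99.8% and 99.9% in the second. Of 83 members, 37 had a leading transcript under 600 bases. Among the 73 members with several transcripts, the leading one was annotated as coding in 62 in the first quantification and in 54 in the second. Leading transcripts of other genes were not counted.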
